A study of Caenorhabditis elegans with 19 samples.

Results

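The srh genes are a family of chemoreceptor genes of the nematode Caenorhabditis elegans, and their occupancy by LIN-14, a nuclear factor of larval timing, was read from chromatin immunoprecipitation sequencing (ChIP-seq) of whole larvae. Members were the genes whose name in the authors' annotated tables is srh followed by a number. These were 176 of the 220 protein-coding srh genes in RefSeq. They held 386 of 37018 annotated LIN-14 peaks of the first larval stage (L1), 89 of 8333 of the second (L2), and 129 of the 14675 sites listed in the authors' deposited table of the stages. The other 44 coding srh genes were assigned no peak and no site, and none of the 72 srh pseudogenes in RefSeq appeared in the tables.

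The tagged strain is written lin14(cc2841[lin-14::gfp]) in the labels, and its LIN-14 carries GFP at the C terminus. L1 larvae of it had fed for 8 ± 1 hours and L2 larvae for 21 ± 1 hours after synchronisation, with about 600000 animals per replicate. Each stage had 5 ChIP libraries, made with beads that bind GFP, and 4 input libraries. A ChIP library of N2 L1 larvae, which lack the tag, is not analysed here, so regions pulled down without the tag were not set aside. The tag was followed in the whole body, so a level is a mean over all cells, with or without LIN-14. It does not show the sensory neurons alone. Peaks were called by the authors on merged libraries, 1 list per stage, so peak values carry no replicate error and depth per library is unknown.

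The srh genes (serpentine receptors, class h) belong to the Str superfamily of seven-transmembrane receptors. Such receptors sit in the cilia of chemosensory neurons, where they bind odorants, tastants or pheromones and signal through G proteins. The nematode genome has very many of these genes, often side by side as tandem copies. The ligands of most are unknown, as is the cell of expression of many. LIN-14 binds DNA and is abundant in L1, and its protein is known to fall as the lin-4 microRNA rises.

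LIN-14 peaks were found at most srh genes in L1. Of the 220 coding members, 174 (79.1%, 95% Wilson interval 73.2 to 83.9) had at least 1 L1 peak, where 69.2% of all 19983 protein-coding genes did. In L2, 60 members (27.3%, 21.8 to 33.5) had a peak, where 24.5% of all protein-coding genes did. The L1 interval lay above the value of all coding genes, and the L2 interval held it. These intervals cover counting error over genes only and treat genes as independent. Of the 220 members, however, 124 stand next to another srh gene, and neighbouring copies are not independent. No test of the family against other genes was made, so neither an L1 excess nor its absence in L2 is shown. Of the members, 59 had peaks in both stages and 115 in L1 only. In L2 only, srh-39 had a peak, of a fold enrichment of 1.44. Limited to peaks with a -log10 q of 10 or more, L1 held 63 srh genes, and with one of 5 or more L2 held 12. The shares of all protein-coding genes at these cutoffs are not given here. Whether the L1 share of srh genes stays above theirs is therefore not shown. The median -log10 q was 6.62 over srh L1 peaks and 7.35 over all L1 peaks. Similar copies are common in this family, and the treatment of reads that match several copies was not given in the sources used here.

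**Figure D1:**
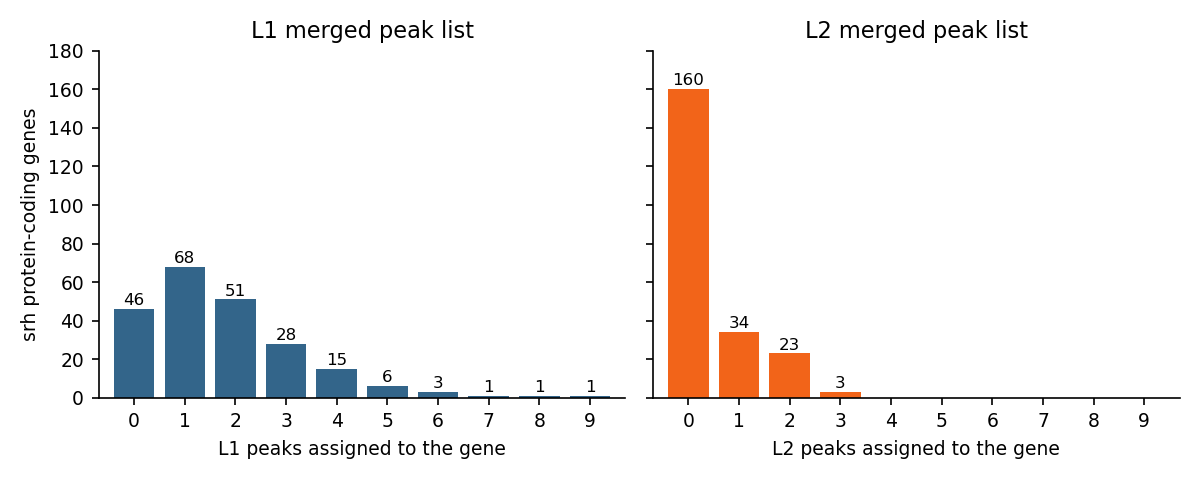
Number of L1 peaks (left) and L2 peaks (right) assigned to each of the 220 protein-coding srh genes; the bars count genes. In L1, 46 genes had no peak and 1 gene had 9; in L2, 160 had none and no gene had more than 3.

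How many peaks a member had varied widely, as the bar chart of peaks per gene shows. In L1, 68 srh genes had 1 peak, 51 had 2, 28 had 3 and 27 had 4 or more. The most were 9 at srh-149, 8 at srh-137 and 7 at srh-303, followed by 6 each at srh-132, srh-203 and srh-296. Those with 5 were srh-76, srh-134, srh-159, srh-229, srh-271 and srh-286. The 15 members with 4 were srh-37, srh-52, srh-71, srh-72, srh-147, srh-154, srh-171, srh-172, srh-192, srh-209, srh-237, srh-255, srh-277, srh-289 and srh-304. The largest counts gathered peaks far from the gene: 3 of the 9 peaks of srh-149 lay in intron 3 of the non-coding Y69H2.19, and 2 of the 8 of srh-137 in intron 4 of the non-coding Y47D3B.17. In L2 the most was 3 peaks, at srh-102, srh-134 and srh-277.

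The strongest L1 peak of the family was assigned to srh-80, at chromosome V, 224066 to 224399, where the fold enrichment relative to the control was 2.88. It lay 4133 bp past the transcript start and beyond the gene's end, in the distal intergenic class. The next was inside srh-142 (chromosome V, 16459827 to 16460378), at 2.78. The serpentine receptor gene srh-142 is known to be expressed in the ADF sensory neuron pair. These were followed by a peak 216 bp upstream of srh-159 (chromosome V, 17181721 to 17182105), at 2.67, and one past the end of srh-237 (chromosome V, 17092583 to 17093309), also at 2.67. The peak of srh-132 (2.66) lay 1953 bp upstream, that of srh-250 (2.56) inside the gene on chromosome II, and that of srh-169 (2.53) 370 bp upstream. Peaks inside srh-131 (2.53) and srh-288 (2.46) and one past the end of srh-154 (2.45) completed the first 10 genes. Such values were the upper end of a narrow range. Over all 386 srh peaks the L1 fold enrichment ran from 1.34 to 2.88 with a median of 1.76, against 1.81 over all annotated L1 peaks. A fold enrichment of 2 or more was reached by 18.9% (15.3 to 23.1) of srh L1 peaks and by 24.7% of all L1 peaks. Median peak width was 282 bp for srh genes and 292 bp overall.

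In the L2 list the median fold enrichment was 1.54 for srh genes and for all L2 peaks alike. The depths of the 2 merged lists are unknown, and how far they set the lower enrichments and counts of L2 was not tested. The strongest lay inside srh-102 (chromosome V, 17163657 to 17163905), at 1.8. The distal peak of srh-80 (chromosome V, 224106 to 224356) was next, at 1.78. An L2 peak inside srh-132 (1.78) and the one 1972 bp upstream of it (1.78) were followed by those of srh-237 (1.742), srh-303 (1.73) and srh-154 (1.72). A peak inside srh-207 reached 1.67, and peaks of srh-38 and srh-214 reached 1.66 each. Tied at 1.65 behind these were srh-8, srh-98 and srh-142. The genes srh-80, srh-132, srh-237 and srh-154 were thus in the leading group of both stages, with srh-142 in the L2 tie. No srh L2 peak had a fold enrichment of 2 or more, and 0.12% of all L2 peaks did.

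Most L2 peaks of the family fell on L1 peaks. Of the 89 srh L2 peaks, 83 (93.3%, 86.1 to 96.9) overlapped an L1 peak by at least 1 bp, against 97.8% of all L2 peaks. With a reciprocal overlap of 50% the srh share was 61.8%. The 6 L2 peaks outside any L1 peak, singled out after their values were seen, belonged to srh-38 (1.66), srh-185 (1.54), srh-37 (1.48), srh-69 (1.46), srh-154 (1.45) and srh-39 (1.44). The srh-38 peak, which spanned the transcript start (chromosome V, 2922548 to 2922730), was the strongest of these. Conversely, 81 of 386 srh L1 peaks (21.0%, 17.2 to 25.3) overlapped an L2 peak, as did 20.9% of all L1 peaks.

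**Figure D2:**
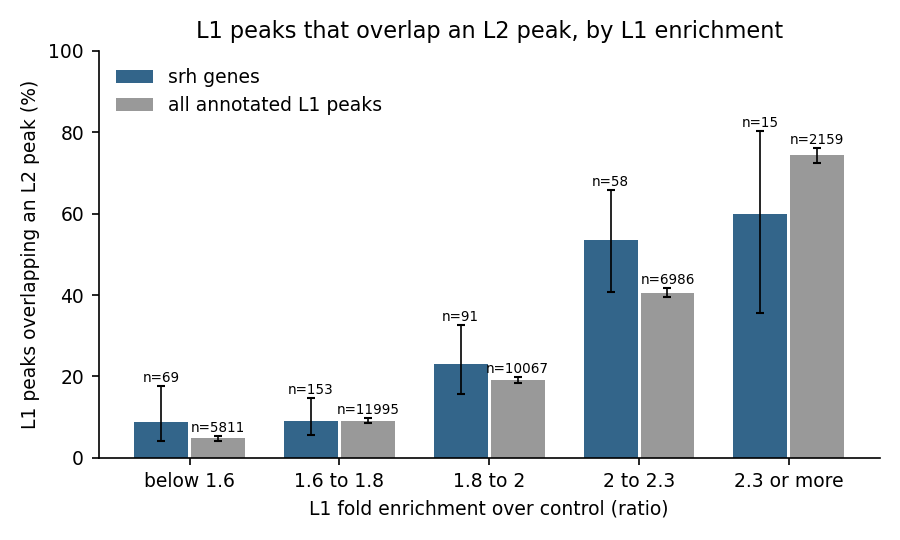
Percent of L1 peaks that overlap an L2 peak by at least 1 bp, in 5 bins of L1 fold enrichment, for srh genes (blue) and all annotated L1 peaks (grey); error bars are 95% Wilson intervals and n is the number of L1 peaks. The srh share was 8.7% below a fold enrichment of 1.6 and 60.0% at 2.3 or more, against 4.75% and 74.3% of all L1 peaks.

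Which L1 peaks had an L2 counterpart went with their strength, as the plot of overlap by L1 enrichment shows. Below a fold enrichment of 1.6, 6 of 69 srh L1 peaks (8.7%) overlapped an L2 peak, and between 1.6 and 1.8, 14 of 153 (9.15%) did. The share was 23.1% of 91 peaks from 1.8 to 2, 53.4% of 58 from 2 to 2.3 (40.8 to 65.7) and 60.0% of 15 above that (35.7 to 80.2). Over all L1 peaks the same bins gave 4.75%, 9.15%, 19.1%, 40.6% and 74.3%, so the share also rose with strength across the series. The srh L1 peaks with an L2 counterpart had a median fold enrichment of 1.99 and a median width of 419 bp, and those without had 1.73 and 260 bp. Over all L1 peaks these medians were 2.05 and 454 bp with an L2 counterpart, and 1.76 and 265 bp without. Strong exceptions without an L2 counterpart included the peaks of srh-159 (2.67) and srh-250 (2.56).

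Where the peaks lay relative to the gene was taken from the transcript assigned in the files. Over all L1 peaks, non-coding genes included, the assigned gene had a median length of 1829 bp, counted once per peak. Over srh L1 peaks it was 1496 bp. A distance of 1 to 3 kb past the start therefore often lies beyond the gene, although the authors' classes count it as promoter. By class, 59.8% of srh L1 peaks were within 1 kb of the start and 92.5% in any promoter class, against 56.0% and 89.1% of all L1 peaks. By the peak's midpoint, 170 of 386 srh L1 peaks (44.0%, 39.2 to 49.0) were inside the transcript without reaching its start, 110 (28.5%) were upstream, 46 (11.9%) spanned the start and 60 (15.5%, 12.3 to 19.5) were past the end. For all protein-coding genes the same shares were 55.5%, 26.0%, 9.12% and 9.36%. In L2, 47 of 89 srh peaks were inside the transcript and 14 past its end. A peak past the end can lie nearer to another gene's regulatory sequence, and the assignment to srh genes by the nearest start does not show which gene it acts on.

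**Figure D3:**
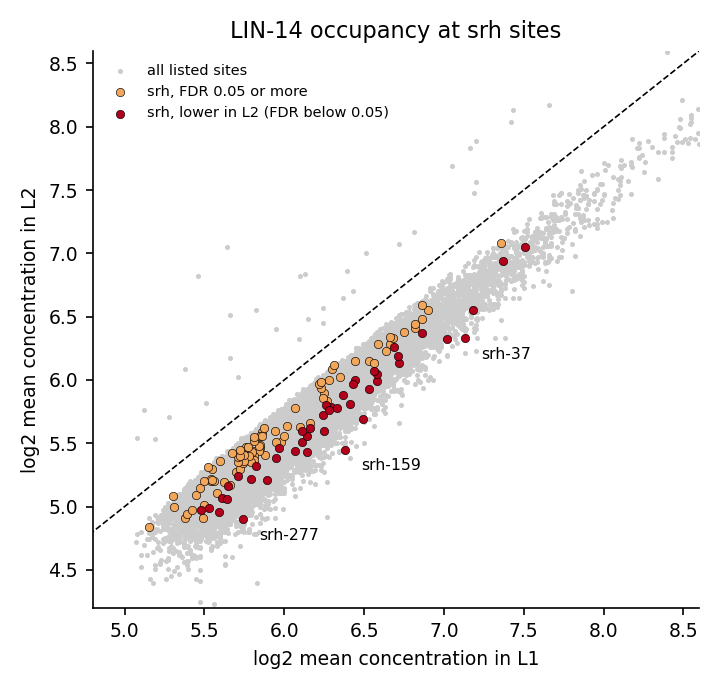
Log2 mean concentration (normalised reads) in L1 (horizontal) and L2 (vertical) in the authors' deposited table, for all listed sites (grey) and the 129 srh sites (red where lower in L2 at a false discovery rate below 0.05, orange otherwise); the dashed line marks equal levels. Every srh site lies below the line, and the few sites of higher concentration fall outside the frame.

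The comparison of the stages asked how LIN-14 occupancy at these genes changed from L1 to L2. The unit was a site with a log2 concentration, the mean of normalised reads on a log2 scale, in each stage, and the log2 fold is L2 minus L1. In the authors' deposited table each of the 129 srh sites was at a lower level in L2, as were 99.7% of all listed sites. At a false discovery rate (FDR) below 0.05, 44 of them (34.1%, 26.5 to 42.6) were lowered in the authors' deposited table, against a background of 41.4% of all listed sites. No srh site was raised in the authors' deposited table, made with DiffBind, nor was one higher at an unadjusted p under 0.05, and the background of raised sites was 0.123%. The interval of the lowered share held the background value. At an FDR below 0.01, 3 srh sites (2.33%) were lowered in the authors' deposited table, against 1.8% of all listed sites. At an FDR below 0.1, 77 (59.7%) were, against 67.9% in the authors' deposited table. The table stops at an FDR of 0.3, so sites that changed least are missing from all of these shares.

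The median drop at srh sites was close to that of all sites. In the authors' deposited table srh sites had a median log2 fold of -0.41 (quartiles -0.50 and -0.33), an occupancy lower by 24.7%. Over all listed sites of the authors' deposited table it was -0.44, or 26.3%, with quartiles of -0.55 and -0.35. How the levels of the stages were scaled to each other was not given, and its part in the drop shared by nearly all sites was not tested. Relative to the median of all listed sites of the authors' deposited table, the srh median was 0.03. Individual srh folds in the authors' deposited table ran from -0.93 to -0.20, and 34 of 129 (26.4%, 19.5 to 34.6) were -0.50 or below, against 36.6% of all listed sites. Median log2 concentrations of srh sites in the authors' deposited table were 5.95 in L1 and 5.51 in L2, where all listed sites had 6.03 and 5.58. The folds and p-values of the authors' deposited table imply standard errors of 0.16 to 0.27 per srh site, with a median of 0.20, if the p came from a normal statistic. The SD of the srh folds in the authors' deposited table, 0.14, was below that median. Sites with an FDR above 0.3 are missing, which can narrow this SD. The comparison of the SD with the standard errors therefore cannot show whether srh sites share 1 drop. The labels do not say that the libraries stem from separate cultures, and the spread behind these p-values may be technical.

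**Figure D4:**
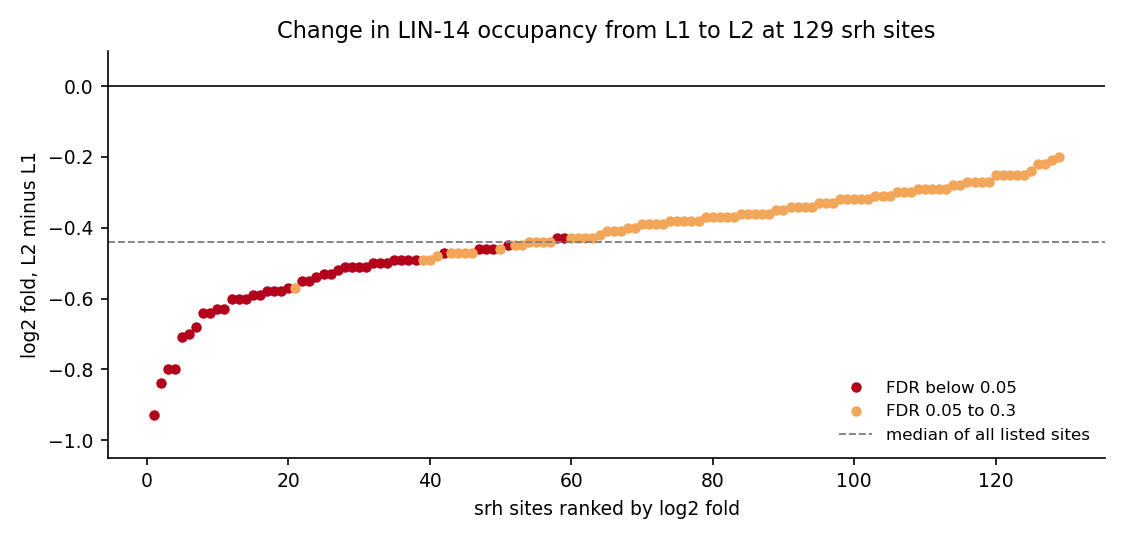
Log2 fold (L2 minus L1) in the authors' deposited table of the 129 srh sites, ranked from the largest drop to the smallest; red points have an FDR below 0.05, orange points an FDR of 0.05 to 0.3, and the dashed line is the median of all listed sites, -0.44. All points lie below 0, from -0.93 to -0.20.

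The ranked plot of folds shows a range without a clear break, in steps smaller than the implied standard errors. The lowest FDR was at the upstream site of srh-159 (chromosome V, 17181696 to 17182074), which went from a log2 concentration of 6.38 to 5.45 in the authors' deposited table. The authors' deposited table gives it a log2 fold of -0.93 (FDR 0.00465), an occupancy lower by 47.5%. A site past the end of srh-37 (chromosome V, 509998 to 510830) went from 7.13 to 6.33 in the authors' deposited table (-0.80, FDR 0.00586). One past the end of srh-277 (chromosome V, 16188259 to 16188476) went from 5.74 to 4.90 in the authors' deposited table (-0.84, FDR 0.0092). None of these 3 sites overlapped an L2 peak.

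Of the next 7 sites by FDR, 5 lay upstream of the gene. A site 103 bp upstream of srh-271 (chromosome V, 2622080 to 2622432) fell from 6.14 to 5.43 in the authors' deposited table (-0.71, FDR 0.0118). One 1097 bp upstream of the ADF-expressed srh-142 (chromosome V, 16462041 to 16462651) fell from 6.58 to 5.99 in the authors' deposited table (-0.59, FDR 0.0119). One 496 bp upstream of srh-72 (chromosome II, 1641098 to 1641560) fell by 0.80 on the log2 scale in the authors' deposited table (FDR 0.0121), an occupancy lower by 42.6%. The authors' deposited table has the rest of the first 10 sites by FDR at srh-229 (-0.68), srh-169 (-0.70), srh-299 (-0.64) and srh-137 (-0.60). Of all 10, those of srh-271, srh-72 and srh-169 still overlapped an L2 peak, which at srh-169 was assigned to another gene.

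At the other end, the folds nearest 0 in the authors' deposited table were -0.20 at srh-21 (FDR 0.294), -0.21 at srh-292 (FDR 0.265) and -0.22 at srh-252 and srh-289 (FDR 0.285 and 0.289). The fifth was the upstream site of srh-159 farther from its start, at -0.24 (FDR 0.231) in the authors' deposited table. None of these passed the threshold. Just inside it in the authors' deposited table were sites of srh-141 (FDR 0.0494, log2 fold -0.46), srh-140 (0.0486, -0.47) and srh-277 (0.0476, -0.55). Just outside it in the authors' deposited table were srh-286 (FDR 0.0537, log2 fold -0.38), srh-290 (0.0541, -0.49) and srh-288 (0.0554, -0.49). The folds on both sides of the threshold overlapped.

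The highest mean level of the family in the authors' deposited table was at the start of srh-105 (chromosome II, 508287 to 509427), with 7.51 in L1 and 7.05 in L2 (-0.46, FDR 0.046). At srh-111 (chromosome V, 17484045 to 17485106) the levels in the authors' deposited table were 7.36 and 7.08, and the fold of -0.28 did not pass (FDR 0.196). At srh-8 (chromosome V, 4005827 to 4006825) they were 7.37 and 6.94 in the authors' deposited table (-0.43, FDR 0.0462). These genes were singled out for their level after the values were seen. Their sites were 1141, 1062 and 999 bp wide in that order, against a median of 331 bp over srh sites. The part of site width in these levels was not tested. The L1 peaks there had fold enrichments of 1.85, 2.14 and 2.26, where the upper quartile of srh L1 peaks was 1.93.

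**Figure D5:**
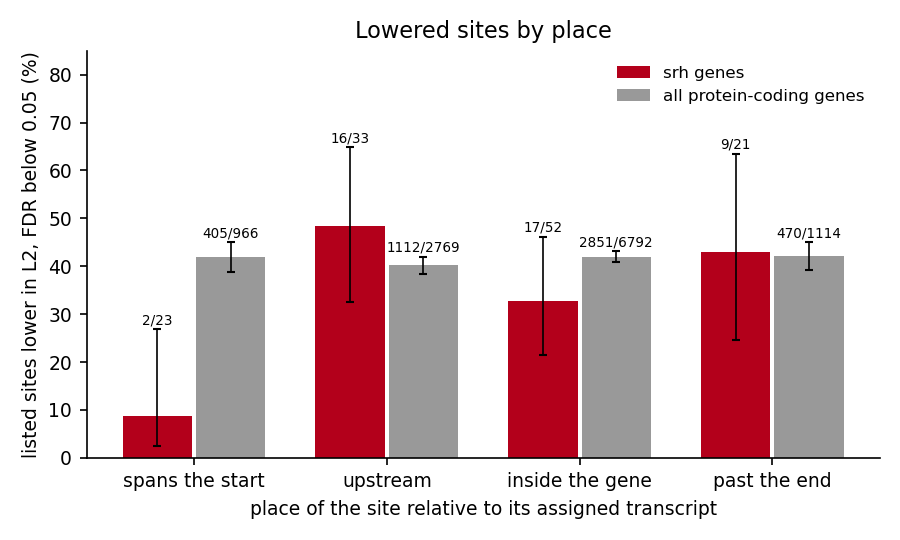
Percent of listed sites lower in L2 (FDR below 0.05 in the authors' deposited table) by place relative to the assigned transcript, for srh genes (red) and all protein-coding genes (grey); error bars are 95% Wilson intervals, and the fractions give lowered over listed sites. Of srh sites that span the start, 2 of 23 were lowered, against 16 of 33 upstream sites.

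The share of srh sites lowered was smallest on the transcript start, as the plot by place shows. Of 23 srh sites that spanned the start, 2 (8.7%, 2.42 to 26.8) were lowered in the authors' deposited table, at srh-199 (-0.51) and srh-105 (-0.46). Upstream, 16 of 33 (48.5%, 32.5 to 64.8) were lowered in the authors' deposited table, inside the gene 17 of 52 (32.7%) and past the end 9 of 21 (42.9%). For all protein-coding genes the 4 shares in the authors' deposited table lay between 40.2% and 42.2%, with 41.9% at the start. The median log2 folds of srh sites in the authors' deposited table were -0.36 at the start, -0.46 upstream, -0.41 inside and -0.43 past the end. Median L1 log2 concentrations of srh sites in the authors' deposited table were 5.85 at the start, 6.07 upstream, 5.92 inside and 6.10 past the end, and L2 medians were 5.51, 5.49, 5.56 and 5.51. A site of srh-112 that begins 6 bp past the start was lowered (-0.58, FDR 0.0222) in the authors' deposited table. Taking all srh sites within 1 kb of the start, 25 of 78 (32.1%, 22.7 to 43.0) were lowered in the authors' deposited table, against 40.7% of all sites of that class. The start was picked out from 4 places after the values were seen, the sites of neighbouring copies are not independent, and the difference was not tested.

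Every listed srh site had a fold below 0, but sites of 1 gene did not always fall on the same side of the threshold. Of 88 srh genes with a listed site, 36 (40.9%, 31.2 to 51.4) had at least 1 lowered site in the authors' deposited table, against 49.4% of all 10004 genes with a site. Among the 33 srh genes with 2 or more sites, 5 had all of them lowered in the authors' deposited table (srh-15, srh-112, srh-131, srh-140 and srh-277), 15 some and 13 none. The same split over all genes with 2 or more sites is not given here, so it is not shown to be particular to the family. Of all listed sites in the authors' deposited table, 41.4% were lowered. The widest spread in the authors' deposited table was at srh-159, whose 3 sites had log2 folds of -0.93, -0.36 and -0.24. At srh-142 the 2 lowered sites had -0.59 each and the other, 1737 bp upstream, -0.25 (FDR 0.288) in the authors' deposited table. The upstream L1 peak of srh-142 was the widest of the family at 1762 bp and overlapped both of its upstream sites. Other wide spreads in the authors' deposited table were -0.80 and -0.44 at srh-72 and -0.70 and -0.38 at srh-169. Whether sites of 1 gene differ from each other was not tested.

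Sites lowered and not lowered overlapped L2 peaks in shares whose intervals overlapped. Of the 44 lowered srh sites in the authors' deposited table, 18 (40.9%, 27.7 to 55.6) overlapped an L2 peak, and of the 85 others 39 (45.9%, 35.7 to 56.4) did. Over all listed sites in the authors' deposited table, 35.3% of those lowered and 41.1% of the others overlapped an L2 peak. All 129 srh sites overlapped an L1 peak, as did 99.9% of all lowered sites and 99.6% of all others. Lowered srh sites had a higher median L1 log2 concentration in the authors' deposited table (6.27) than the others (5.81), while the L2 medians were 5.70 and 5.47. Over all listed sites the L1 medians in the authors' deposited table were 6.15 and 5.94, and the L2 medians 5.57 and 5.58. The call as lowered rests on these same levels, so the difference in L1 medians is not a separate result. Of the 386 srh L1 peaks, 125 (32.4%) overlapped a listed site, against 38.7% of all L1 peaks. Most srh L1 peaks, like most L1 peaks of the series, thus have no listed fold.

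By chromosome, V held most of the family. It had 336 of 386 srh L1 peaks (87.0%) at 147 genes, chromosome II had 37 at 20 genes, IV had 10 at 5 genes, III had 2 at 1 gene and X had 1. In L2, chromosome V had 77 of 89 srh peaks. Over all chromosomes, 174 of 220 coding srh genes had an L1 peak, beside 69.2% of all protein-coding genes. The number of srh genes on each chromosome is not given here, so these counts do not show that LIN-14 favours a chromosome. Of 115 srh sites on chromosome V, 38 (33.0%, 25.1 to 42.1) were lowered in the authors' deposited table, with a median log2 fold of -0.41. The 2975 other listed sites of chromosome V had 39.4% lowered and a median log2 fold of -0.44 in that same source, the authors' deposited table. On chromosome II, 6 of 11 srh sites (54.5%, 28.0 to 78.7) were lowered in the authors' deposited table (median -0.46), an interval that holds the 41.4% of all listed sites. These 6 in the authors' deposited table were those of srh-72, srh-41 (-0.60), srh-250 (-0.57), srh-297 (-0.50), srh-128 (-0.49) and srh-105. Neither site on IV, both of srh-282, nor the srh-40 site on III (-0.40, FDR 0.0938) passed in the authors' deposited table. The stretch of chromosome V between 17 and 18 Mb held the most srh L1 peaks of any megabase, 102 at 36 genes, and 41 listed sites. Totals of srh genes and of all L1 peaks there are not given here, so no preference of LIN-14 for this stretch is shown.

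Many srh genes stand next to each other. In the RefSeq gene order of assembly WBcel235, counting protein-coding genes only, 124 of the 220 members had another srh gene as direct neighbour, in 46 runs, and 96 did not. L1 peaks were present at 78.2% of members in runs and 80.2% of the others, beside 69.2% of all protein-coding genes. L2 peaks were present at 23.4% and 32.3%, beside 24.5% of all protein-coding genes. Of 72 sites at members in runs, 20 (27.8%) were lowered in the authors' deposited table (median log2 fold -0.38), and of 57 sites at the others 24 (42.1%, median -0.44). Over all listed sites of the authors' deposited table, 41.4% were lowered, with a median of -0.44. The difference between members in runs and the others was not tested.

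The longest run was 9 genes of chromosome V, from srh-292 to srh-286, and all 9 had an L1 peak (31 peaks together, with 7 in L2). Its 13 listed sites had log2 folds from -0.54 to -0.21 in the authors' deposited table (median -0.37). Lowered among them in the authors' deposited table were 3 sites, at srh-301 (-0.53), srh-304 (-0.54) and srh-296 (-0.49). A run of 4, srh-172, srh-171, srh-173 and srh-183, had 11 L1 peaks and folds of -0.30 to -0.29 at its 3 sites in the authors' deposited table, none of them lowered. The run srh-109, srh-252 and srh-112 was mixed, with 3 of 5 sites lowered in the authors' deposited table and folds from -0.60 to -0.22. In the run of 6 on chromosome II that holds srh-68, 4 genes had an L1 peak and none had a listed site. Over the family, 88 of 220 coding members had a listed site. The 3 neighbours srh-49, srh-51 and srh-50 on chromosome I had no peak in either stage. Which runs to describe was not set before their values were seen.

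Some members with a known place of expression were chosen and looked up by name, and there may be others. Besides srh-142, these were srh-220 and srh-234, both known from the ADL sensory neurons, where srh-234 is known to respond to feeding state. The gene srh-220 on chromosome IV had 3 L1 peaks, with fold enrichments of 1.742 (229 bp upstream), 1.59 and 1.405, no L2 peak and no listed site. The gene srh-234 had 1 L1 peak, past its end (1.63), and no L2 peak. Its site, 2742 bp past the start (chromosome V, 7648781 to 7649096), went from 5.65 in L1 to 5.16 in L2 in the authors' deposited table (-0.49, FDR 0.0444). Of the genes of this group, srh-142 had the strongest peaks in both stages, 2.78 in L1 and 1.65 in L2.

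The other families of the Str superfamily were read in the same way. L1 peaks were found at 131 of 193 str genes (67.9%), 35 of 39 srj genes (89.7%), 45 of 61 sri genes (73.8%) and 46 of 67 srd genes (68.7%), beside 79.1% of srh genes. L2 peaks were found at 22.8% of str, 35.9% of srj, 32.8% of sri and 25.4% of srd genes, beside 27.3% of srh genes. Of all protein-coding genes, 69.2% had an L1 peak and 24.5% an L2 peak. Lowered shares in the authors' deposited table were 32 of 90 sites for str (35.6%), 15 of 29 for srj (51.7%), 19 of 42 for sri (45.2%) and 14 of 31 for srd (45.2%). The median log2 folds in the authors' deposited table were -0.38 for str, -0.45 for srj, -0.44 for sri and -0.42 for srd, beside -0.41 for srh. The small srm family had L1 peaks at 3 of 6 genes and the single srn gene had 3 L1 peaks, with no L2 peak in either family. A single str site was raised in the authors' deposited table, whereas no site of the srh, srj, sri or srd families was. No test between families was made.

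Genes that act with such receptors were examined as a list of 21, of which 17 had an L1 peak, 11 an L2 peak and 10 a listed site, beside L1 peaks at 69.2% and L2 peaks at 24.5% of all protein-coding genes. Of their 16 sites 6 were lowered and none raised in the authors' deposited table, beside 41.4% and 0.123% of all listed sites, and their median log2 fold was -0.38 beside -0.44. The gene odr-4, needed to bring receptors to the cilia, had its site lowered in the authors' deposited table (-0.55, FDR 0.02), while that of odr-8, which acts with it, was not (-0.29, FDR 0.195). The G protein gene gpa-11 had a lowered site (-0.68, FDR 0.0137), and so did osm-9, a TRPV channel gene of sensory signalling (-0.56, FDR 0.0248), both in the authors' deposited table. Its partner channel gene ocr-2 did not pass (-0.39, FDR 0.085) in the authors' deposited table. Among regulators, 2 of 4 sites of the homeobox gene ceh-36 and 1 of 2 of the bHLH gene hlh-2 passed as lowered in the authors' deposited table. The single site of kin-29, a kinase known to act on chemoreceptor gene expression, did not pass (-0.32, FDR 0.155) in the authors' deposited table. The genes gpa-3, gpa-15, hlh-4 and che-1 had no peak in either stage.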

How the data were processed

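Members and gene lists were chosen with earlier results of these data known. Tools named in the submitters' processing notes are ChIPseeker, DiffBind, MACS2, SAMtools and BWA. Their versions, the genome build and the normalization were not given in the sources used here. By the peak names, libraries of a stage were merged, filtered and rid of outliers before the authors called peaks. Each deposited peak has a score, a fold enrichment (a ratio to the control), and -log10 p- and q-values. The authors' comparison table holds p-values, FDR, log2 fold and log2 concentrations, per the file headers. Only sites with an FDR up to 0.3 are listed.

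Positions are those of the files, written from 1, in a build not named in the sources used here. Overlaps needed 1 bp, shares have 95% Wilson intervals, and changed sites had an FDR below 0.05. A site's place came from its midpoint and the assigned transcript, and the classes from the authors. File gene names were matched to a RefSeq table of assembly WBcel235 (46926 genes), which matched 99.8% of L1 peaks, by symbol, accession or locus tag, and which gave only names, biotypes and gene order. Named genes were the 10 with the strongest peak per stage, the 10 sites of lowest FDR, the 5 folds nearest 0, the 3 sites on each side of the threshold, members with the most L1 peaks (of those with 3 or more, the ones with 4 or more), and srh-142, srh-220 and srh-234. Promoter motifs and sequences were not used here. Overlap and interval code was tested on simulated data. Software was SciPy 1.17.1, pandas 2.3.3, NumPy 2.4.6, matplotlib 3.10.9 and Python 3.11.15.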

Additional observations from a re-analysis of the deposited data

How the results depend on the processing

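Of 17 alternatives, 10 gave a value within the tolerance (1.5 times for counts) and 7 did not. Stricter peaks left 63 srh genes in L1 (-log10 q of 10 or more, against 174) and 12 in L2 (5 or more, against 60). The shares of all protein-coding genes at these cutoffs are not given here. A reciprocal overlap of 50% gave 61.8% of srh L2 peaks on an L1 peak, against 93.3%, and 14.5% of srh L1 peaks on an L2 peak, against 21.0%. Lowered srh sites numbered 3 at an FDR below 0.01 and 77 at one below 0.1 in the authors' deposited table, against 44. Relative to the median of all listed sites in the authors' deposited table, the median srh log2 fold was 0.03 in place of -0.41. Limits to the promoter classes, to 1 kb, to 1 site per gene or to chromosome V made up the alternatives that moved results less. No paired analysis was possible because the tables used here hold 1 value per stage, and for the same reason no replicate could be left out. Depth per library is unknown.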
